A study of Macaca mulatta with 4 samples.

Results

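The genes described here are 10 genes of the fibroblasts that line the brain surface and its larger vessels: SLC6A13, SLC13A4, CRABP2, DCN, LUM, PTGDS, ALDH1A2, SLC22A6, FOXC1 and IGF2. They were taken by symbol from the 33618 genes of the count table as genes that report on how much pial tissue a cortex sample holds, with collagens set aside. SLC6A13 was also chosen by its measured difference between the groups, higher after sevoflurane in earlier results of these data, so the comparison between groups is given for all 10 as a description.

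RNA-seq was done on prefrontal cortex of rhesus macaques (Macaca mulatta), with 2 control and 2 sevoflurane libraries. All are labelled wild type. Sevoflurane, an inhaled general anaesthetic, was given at about 2.5 to 3% in 3 sessions of 4 hours, the first at about postnatal day 7 and the others 14 and 28 days later, and tissue was collected as soon as the last exposure ended. The control label gives the agent as none, and neither the handling of control animals nor the dissection of pia from cortex is given in the sources used here. The libraries carry the numbers 2 and 3 in each group, and nothing in the labels says that replicates are separate animals, so the spread between them may be technical. Total counts were 7793757 in control replicate 3, the shallowest library, and 10059944 to 11706115 in the others. Control replicate 3 also stood apart from the others on the first principal component of all tested genes (59.56, against -32.02 to -3.12).

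The leptomeninges are the thin membranes on the brain surface: the arachnoid outside and the pia against the cortex. Fibroblasts build both layers and follow penetrating vessels into the tissue as perivascular fibroblasts. They lay down matrix, carry solutes between cerebrospinal fluid and brain, and release retinoic acid and growth factors to the cortex below. Most of these genes are expressed weakly by cortical neurons and glia, PTGDS being an exception. In bulk tissue, fewer cells of a type and less RNA per cell cannot be told apart.

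All 10 genes were highest in sevoflurane replicate 2, and 8 of 10 were also lowest in control replicate 3. That pair of extremes held for 10.6% of all 17693 tested genes. The other libraries lay between, and sevoflurane replicate 3 exceeded control replicate 2 beyond counting error for SLC6A13 and SLC13A4 alone. In SLC6A13 the 2 control libraries were alike within counting error, and sevoflurane replicates 2 and 3 lay 3.27-fold and 2.23-fold above control replicate 2. Levels are given as CPM, counts scaled to a common library size after TMM (trimmed mean of M values) normalisation, in the order control replicates 2 and 3, then sevoflurane replicates 2 and 3. CPM is not corrected for gene length, so levels are compared between libraries and not between genes.

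**Figure D1:**
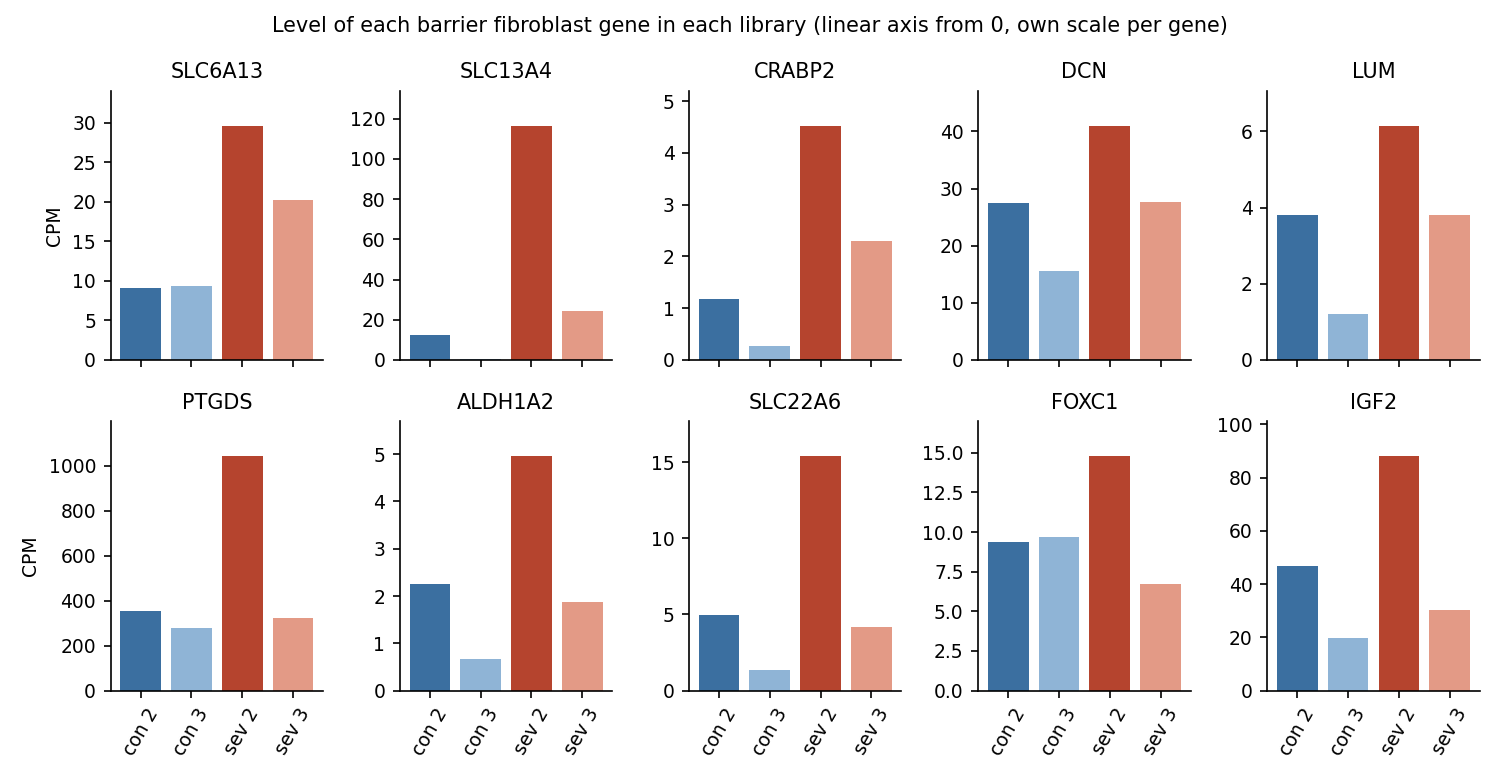
CPM (vertical axes, linear from 0, each gene on its own scale) of the 10 genes in control replicates 2 and 3 (blue) and sevoflurane replicates 2 and 3 (red), 1 bar per library. Sevoflurane replicate 2 has the tallest bar for every gene, and the control bars are nearly level for SLC6A13 (9.08 and 9.42 CPM) and FOXC1 (9.37 and 9.68 CPM).

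Of the membrane transporters, SLC6A13 (GAT2) takes up GABA and taurine and is found on leptomeningeal cells. It had 9.08 and 9.42 CPM in the control libraries and 29.6 and 20.3 CPM in the sevoflurane libraries. The groups did not overlap, and the control pair had a ratio of 0.964 (exact 95% counting interval 0.700 to 1.33). Group means were 9.25 ± 0.240 and 25.0 ± 6.62 CPM (SD, n = 2 each). On the log2 scale sevoflurane exceeded control by 1.43 (SE 0.25). The value was 1.13 and 1.68 when sevoflurane replicate 2 or 3 was left out, and 1.40 and 1.46 when control replicate 2 or 3 was.

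SLC13A4 carries sulfate and is known from leptomeninges and choroid plexus. It had 12.3 and 0.530 CPM in controls and 117 and 24.5 CPM after sevoflurane, from raw counts of 126, 4, 1365 and 289. No other member ranged as widely: sevoflurane replicate 2 was 220-fold above control replicate 3 (counting interval 85.7 to 808), and the 2 control libraries alone differed 23.2-fold (8.83 to 86.4). The groups did not overlap, with a log2 fold change of 3.37 (SE 0.88) that was 7.02 without control replicate 2 and 1.88 without sevoflurane replicate 2.

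SLC22A6 (OAT1) is an organic anion transporter known from kidney, and in brain from the meninges. Its levels were 4.98 and 1.33 CPM in controls and 15.4 and 4.16 CPM after sevoflurane. The groups overlapped, since control replicate 2 lay above sevoflurane replicate 3. The ratio of these 2 libraries was 0.835 (counting interval 0.553 to 1.26), a difference within counting error. The log2 fold change of 1.58 (SE 0.67) was 0.37 without sevoflurane replicate 2 and 2.87 without control replicate 2.

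Of the retinoid genes, ALDH1A2 (RALDH2) makes retinoic acid from retinal and is a classical enzyme of the meninges. It had 2.24 and 0.663 CPM in controls and 4.96 and 1.87 CPM after sevoflurane, and the groups overlapped. CRABP2 binds retinoic acid and hands it to its nuclear receptor. Its levels were 1.17 and 0.265 CPM in controls and 4.53 and 2.29 CPM after sevoflurane, with no overlap. Counts were as low as 5 for ALDH1A2 and 2 for CRABP2 in control replicate 3, so that the CRABP2 ratio between the controls, 4.42, had a counting interval of 0.983 to 40.6. The log2 fold changes were 1.18 (SE 0.69) for ALDH1A2 and 2.16 (SE 0.71) for CRABP2. Leaving out sevoflurane replicate 2 gave 0.33 for ALDH1A2, and leaving out control replicate 2 gave 3.62 for CRABP2.

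Decorin (DCN) and lumican (LUM) are small leucine-rich proteoglycans that bind collagen fibrils. DCN had 27.4 and 15.5 CPM in controls and 41.0 and 27.7 CPM after sevoflurane. LUM had 3.81 and 1.19 CPM in controls and 6.15 and 3.82 CPM after sevoflurane. By strict order neither gene overlapped between groups, yet control replicate 2 and sevoflurane replicate 3 were level, with a ratio of 1.01 (counting interval 0.857 to 1.19) for DCN and a counting interval of 0.639 to 1.58 for that of LUM. The log2 fold changes were 0.67 (SE 0.29) and 0.95 (SE 0.55), and without control replicate 3 they were 0.32 and 0.39.

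PTGDS makes prostaglandin D2 and, secreted, carries lipophilic molecules in cerebrospinal fluid. It had 354 and 279 CPM in controls and 1041 and 322 CPM after sevoflurane. Sevoflurane replicate 2 stood 3.23-fold above its partner (counting interval 3.12 to 3.35), while the other 3 libraries lay between 279 and 354 CPM. Without that library the log2 fold change of 1.10 (SE 0.41) was 0.02. PTGDS is also made by oligodendrocytes, whose 12 markers summed to 9396 and 14830 CPM in controls and to 2452 and 3659 CPM after sevoflurane. Thus PTGDS was highest in the library with the lowest oligodendrocyte sum.

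FOXC1, a forkhead transcription factor needed for meninges and for pericytes, had 9.37 and 9.68 CPM in controls and 14.8 and 6.70 CPM after sevoflurane. The control pair lay between the 2 sevoflurane libraries, and the log2 fold change was 0.17 (SE 0.36) with all libraries and -0.50 without sevoflurane replicate 2. IGF2, an insulin-like growth factor secreted by leptomeninges and choroid plexus, had 46.9 and 19.6 CPM in controls and 88.0 and 30.2 CPM after sevoflurane. Its groups overlapped, with a log2 fold change of 0.81 (SE 0.48) that was -0.15 without sevoflurane replicate 2. INS, the insulin gene known to lie beside IGF2, had 0 to 2 counts per library.

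Side by side, 10 of 10 genes had a positive log2 fold change (median 1.14, against -0.00 over all tested genes) and 6 of 10 had one of at least 1, a size reached upward by 3.00% of tested genes. All 10 passed the filter on low counts. By edgeR's quasi-likelihood test with Benjamini-Hochberg adjustment over all genes, SLC6A13 was called higher and the other 9 were not called (adjusted p 0.191 for SLC13A4 to 0.929 for FOXC1). Upward calls made up 0.0622% of tested genes, and since SLC6A13 was chosen for this contrast nothing is read from its call. That call was absent with library size alone, with no filter, by limma-voom (upward calls 0.0396% of genes), and when control replicate 2, control replicate 3 or sevoflurane replicate 2 was left out. By edgeR's likelihood ratio test, with 0.774% of genes called upward, SLC6A13 and SLC13A4 were called. Both sevoflurane libraries lay above both controls for 5 of 10 genes (SLC6A13, SLC13A4, CRABP2, DCN and LUM), an arrangement found in 20.8% of tested genes.

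**Figure D2:**
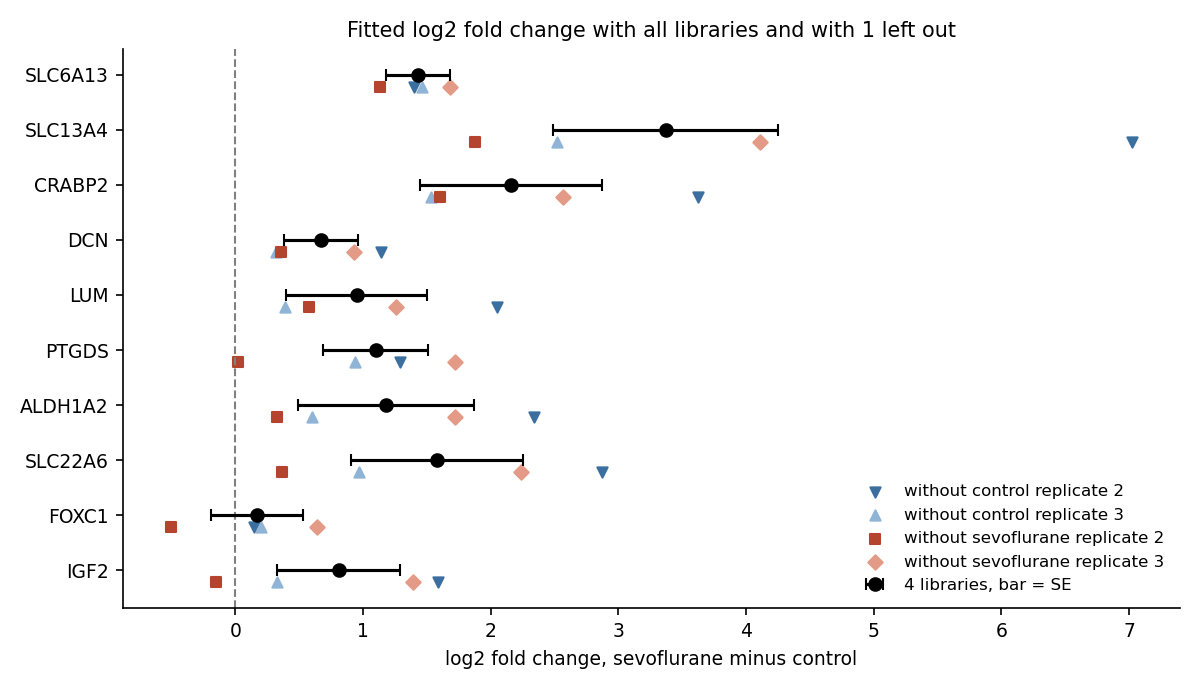
Fitted log2 fold change of each gene, sevoflurane minus control (horizontal axis), with all 4 libraries (black, bar = SE) and with 1 library left out (coloured symbols). PTGDS, FOXC1 and IGF2 reach 0.02, -0.50 and -0.15 without sevoflurane replicate 2. The other genes stay at 0.32 or more, among them SLC13A4 (1.88 to 7.02), CRABP2 (1.53 to 3.62) and SLC6A13 (1.13 to 1.68). SLC6A13 was chosen by its difference in this contrast.

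Libraries of the same group differed from each other. Between the controls, replicate 2 exceeded replicate 3 beyond counting error for 7 of 10 genes, and no gene went the other way beyond it. The median ratio was 2.79, from 0.964 for SLC6A13 to 23.2 for SLC13A4. Between the sevoflurane libraries, replicate 2 exceeded replicate 3 beyond counting error for 10 of 10, with a median ratio of 2.42, from 1.46 for SLC6A13 to 4.76 for SLC13A4. These intervals cover counting error only. The share of all tested genes beyond such intervals was not computed, here or for the ratios across groups.

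Across groups, sevoflurane replicate 2 exceeded control replicate 2 beyond counting error for 10 of 10 genes (median ratio 2.58). Sevoflurane replicate 3 exceeded control replicate 3 for 9 of 10 (median 2.48), and FOXC1 went the other way (0.692, counting interval 0.497 to 0.965). The middle libraries, sevoflurane replicate 3 and control replicate 2, leave out the highest sevoflurane and the lowest control library, a choice that by itself draws the ratio toward no difference. Their median ratio was 0.954, and sevoflurane replicate 3 was the higher for 5 of 10 genes, as for 50.0% of tested genes. Beyond counting error it was higher for SLC6A13 (2.23, interval 1.75 to 2.87) and SLC13A4 (1.99, 1.61 to 2.48). It was lower for IGF2 (0.644, 0.560 to 0.740), FOXC1 (0.715, 0.524 to 0.974) and PTGDS (0.908, 0.868 to 0.951). These are 1 library against 1, with no replicate check, and the middle pair was picked after the levels were seen.

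**Figure D3:**
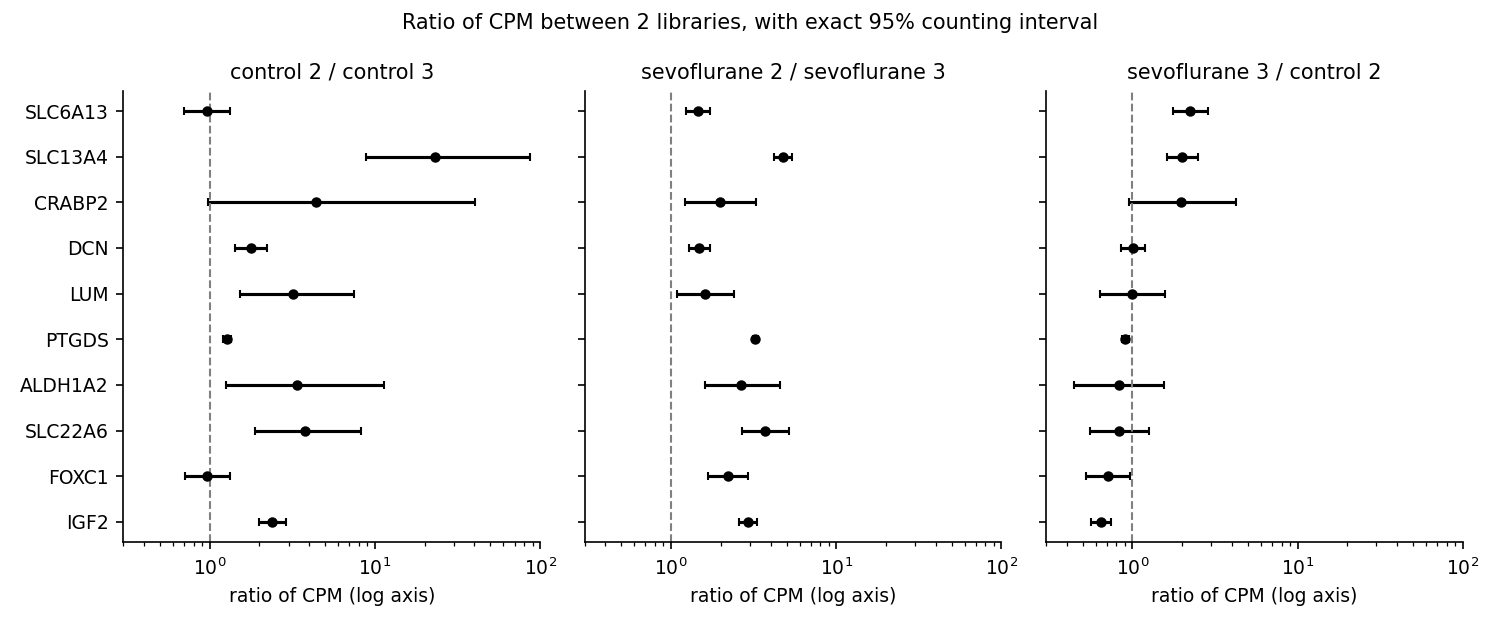
Ratio of CPM (horizontal log axes) between the 2 controls, the 2 sevoflurane libraries, and sevoflurane replicate 3 against control replicate 2, with exact 95% counting intervals. All 10 points lie right of 1 in the middle panel, and in the right panel SLC6A13 (2.23) and SLC13A4 (1.99) lie right of 1 with intervals that exclude it.

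The genes did not scale together. Between sevoflurane replicate 2 and control replicate 3 the ratio was 1.53 for FOXC1, 2.64 for DCN, 3.15 for SLC6A13, 3.73 for PTGDS, 4.48 for IGF2 and 5.15 for LUM. It was 7.47 for ALDH1A2, 11.6 for SLC22A6, 17.1 for CRABP2 and 220 for SLC13A4. The quotient of SLC13A4 over DCN was 0.448 and 0.0342 in the controls and 2.84 and 0.887 in the sevoflurane libraries, so it did not overlap between groups. Its value in control replicate 3 rests on 4 counts of SLC13A4, which by itself did not overlap either. The quotient of PTGDS over DCN was 12.9 and 18.0 in controls and 25.4 and 11.6 after sevoflurane, and it overlapped. The quotient of SLC6A13 over the geometric mean of the other 9 genes was 0.816 and 2.56 in controls and 1.03 and 1.79 after sevoflurane, and it overlapped. SLC6A13 was thus higher after sevoflurane in CPM, but relative to the other 9 genes control replicate 3 had the highest value. SLC6A13 itself was level between the controls. The geometric mean in control replicate 3, 3.67 CPM, includes CRABP2, SLC13A4, ALDH1A2, LUM and SLC22A6 at 2 to 10 counts each.

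Averaged as log2 deviations from each gene's own mean over the 4 libraries, the 10 genes had -0.06 and -1.33 in the controls and 1.32 and 0.07 in the sevoflurane libraries. Without SLC6A13 these means were 0.02, -1.41, 1.36 and 0.03. In sevoflurane replicate 2 every gene was above its mean, from 0.59 for FOXC1 to 3.20 for SLC13A4. In control replicate 3 every gene was below it, from -0.01 for FOXC1 to -4.13 for SLC13A4. SLC13A4 thus weighed most on the means of these libraries, and no mean without it was made.

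A list of 30 other leptomeningeal and perivascular fibroblast genes, without collagens, was looked at for the same order of libraries. Of its 28 tested genes 0 were called (6 at an unadjusted p under 0.05 by edgeR; over the whole table that share was 9.92%), 17 had a positive log2 fold change and the median was 0.27. The median was -0.10 without sevoflurane replicate 2. Sevoflurane replicate 2 was highest for 17 of 28, against 22.2% of all tested genes. It was highest with control replicate 3 lowest for 9 of 28, against 10.6%. Control replicate 3 was lowest for 11 of 28, near the 31.7% of all tested genes. Mean deviations were -0.10 and -0.39 in controls and 0.60 and -0.11 after sevoflurane. The means thus had the same 2 extremes at smaller size. Single genes in control replicate 3 ranged from -3.27, for SLC22A8 with 0 counts there, to 0.77 for BMP5.

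Among these genes, osteoglycin (OGN), another small leucine-rich proteoglycan, had 23.9 and 9.81 CPM in controls and 53.9 and 18.3 CPM after sevoflurane (log2 fold change 1.08, SE 0.49, adjusted p = 0.529 by edgeR). ADAMTSL3, a secreted matrix protein, had 39.3, 23.7, 47.8 and 39.8 CPM (0.46, SE 0.24). Others did not share the order. The matrix protein genes FBLN2 and SVEP1 had 19.3, 42.6, 28.6 and 20.0 CPM, and 34.1, 25.6, 22.8 and 27.1 CPM. For FBLN2 control replicate 3 was the highest library, and for SVEP1 control replicate 2 was.

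Further organic ion transporters in that list, named after their values were seen, also had their highest count in sevoflurane replicate 2. SLC22A8 (OAT3) had 15 and 0 counts in controls and 110 and 45 after sevoflurane, and SLC22A2 (OCT2) had 6, 10, 78 and 19 counts. SLC47A1, a multidrug and toxin extrusion transporter, was even at 17.5, 19.1, 19.8 and 16.6 CPM.

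**Figure D4:**
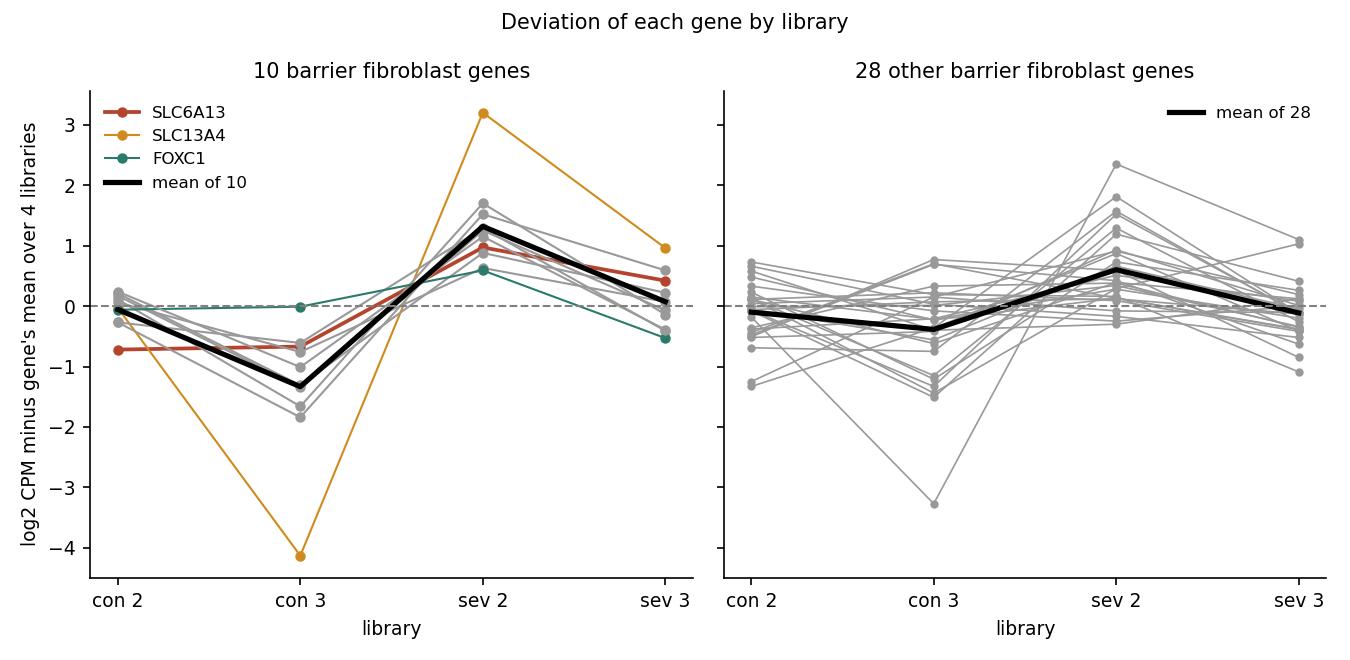
Log2 CPM minus each gene's mean over the 4 libraries (vertical axis) by library (horizontal axis), for the 10 genes (left) and the 28 other tested barrier fibroblast genes (right), with the mean in black. Lines join the values of 1 gene and imply no order. Both means are lowest in control replicate 3 (-1.33 and -0.39) and highest in sevoflurane replicate 2 (1.32 and 0.60).

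The pathways that the 10 genes belong to showed no called gene. Of 16 tested genes of retinoic acid synthesis, carriage, breakdown and receptors, 0 were called (2 at an unadjusted p under 0.05 by edgeR; median log2 fold change 0.02). ALDH1A1, another retinal dehydrogenase, was even at 127, 117, 125 and 120 CPM, and the receptor RXRB was at 53.2 to 54.6 CPM in all 4 libraries. RXRA had 0.32 (SE 0.16) and RARA -0.56 (SE 0.20, adjusted p = 0.370 by edgeR). CRABP1, the sister gene of CRABP2, was named after its values were seen. It had 3.22, 0.530, 5.55 and 2.38 CPM, the library extremes of CRABP2 with groups that overlapped.

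Of 15 tested genes of insulin-like growth factor signalling 0 were called (4 at an unadjusted p under 0.05 by edgeR; median 0.12). The receptor IGF1R varied little (110, 99.2, 110 and 113 CPM). The receptor INSR had 103, 117, 118 and 138 CPM (log2 fold change 0.22, SE 0.14). IGF2R, which clears IGF2, had 93.9, 75.7, 114 and 102 CPM (0.34, SE 0.15). In INSR and IGF2R both sevoflurane libraries lay above both controls, as for 6 of the 15 genes and 20.8% of all tested genes. The binding protein IGFBP5 had 400 and 363 CPM in controls and 325 and 482 CPM after sevoflurane. IGFBP3, named after its values were seen, had 15.7 and 18.4 CPM in controls and 33.3 and 36.2 CPM after sevoflurane. Its groups were well apart (1.03, SE 0.19), and it did not pass (adjusted p = 0.0549 by edgeR).

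Of 7 tested genes of GABA, betaine and taurine transport and GABA breakdown, 0 were called and 0 had an unadjusted p under 0.05 by edgeR (median -0.09). ABAT, the transaminase that breaks down GABA, had 356, 368, 331 and 351 CPM. SLC6A12, the betaine and GABA transporter closest to SLC6A13 in the family, was named after its values were seen. It had 26.6 and 32.8 CPM in controls and 24.4 and 24.9 CPM after sevoflurane (-0.27, SE 0.19), the opposite sign to SLC6A13.

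Of 11 tested organic ion transporters of barrier cells 0 were called (3 at an unadjusted p under 0.05 by edgeR; median 0.18), and ABCG2, an efflux pump of brain endothelium, had -0.72 (SE 0.19, adjusted p = 0.202 by edgeR). Of 5 tested genes of the SLC13 family and sulfate transport 0 were called (0 at an unadjusted p under 0.05 by edgeR; median 0.13). SLC13A3, a dicarboxylate transporter, had 34.8, 29.8, 58.5 and 28.3 CPM, again highest in sevoflurane replicate 2. SLC26A2, a sulfate transporter, had 15.8, 15.4, 25.5 and 16.7 CPM, with the same library highest.

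Of 10 tested small leucine-rich proteoglycans other than DCN and LUM, 0 were called (1 at an unadjusted p under 0.05 by edgeR, median 0.41). OGN, FMOD and ASPN among them are also in the other barrier fibroblast list. Biglycan (BGN) was even at 35.9, 39.1, 33.3 and 32.3 CPM. OMD, named after its values were seen, had 2.34, 0.530, 13.3 and 4.24 CPM (2.53, SE 0.69), the library order of SLC13A4. Sevoflurane replicate 2 was highest with control replicate 3 lowest for 4 of 10 (10.6% of all tested genes). Of 13 tested meningeal and mural transcription factors 0 were called (2 at an unadjusted p under 0.05 by edgeR; median 0.15). ZIC1 and ZIC2, zinc finger factors of meninges, were highest in sevoflurane replicate 2 at 25.2 and 38.0 CPM. ZIC1 was lowest in sevoflurane replicate 3 (7.47 CPM), as FOXC1 was. Of 11 tested genes of prostaglandin synthesis and reception 0 were called (2 at an unadjusted p under 0.05 by edgeR; median 0.15). The cyclooxygenase PTGS2 had 12.4, 15.5, 18.6 and 11.3 CPM.

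Markers of neighbouring cell types were set beside the 10 genes. Of 11 tested fibroblast collagens 0 were called (2 at an unadjusted p under 0.05 by edgeR; median 0.35). Their sum was 621 and 423 CPM in controls and 798 and 446 CPM after sevoflurane, with sevoflurane replicate 2 highest for 7 of 11 and control replicate 3 lowest for 8 of 11 (31.7% of all tested genes). COL1A2, a chain of type I collagen, had 75.8, 33.2, 166 and 52.6 CPM, so its groups overlapped as those of IGF2 did. Other collagens did not share that order. COL5A2 had 208, 162, 154.5 and 133 CPM (log2 fold change -0.37, SE 0.15), and COL12A1 was highest in control replicate 2 at 104 CPM. Both sevoflurane libraries lay below both controls for 2 of 11 collagens (3607 of 17693 tested genes) and above them for 0.

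The 7 arachnoid barrier genes summed to 25.3 and 31.2 CPM in controls and 84.2 and 42.3 CPM after sevoflurane. Without DSP, the desmosomal gene of desmoplakin, the sums were 19.7, 29.2, 31.8 and 30.8 CPM. Of the 4 tested, 0 were called (1 at an unadjusted p under 0.05 by edgeR; median 0.67). DSP itself had 5.56 and 1.99 CPM in controls and 52.4 and 11.5 CPM after sevoflurane, the library order of SLC13A4 (3.03, SE 0.68, adjusted p = 0.115 by edgeR). The other tested genes did not share that order: JUP (plakoglobin) was highest in sevoflurane replicate 3 at 22.7 CPM, KRT19, a keratin, was lowest in control replicate 2 at 1.46 CPM, and DPP4, a membrane peptidase, had 3.51, 3.85, 3.33 and 2.72 CPM. CDH1, the epithelial cadherin of that layer, had 2 to 7 counts per library. The part of arachnoid tissue in the levels of the 10 genes was not tested.

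Choroid plexus markers stayed low in all libraries. The 12 listed summed to 32.5 and 38.7 CPM in controls and 32.4 and 29.2 CPM after sevoflurane, of which AQP1, also found in other cells, gave 14.4, 20.0, 4.02 and 7.30 CPM. Of the 8 tested, 0 were called (3 at an unadjusted p under 0.05 by edgeR; median 0.50). The sums and the mean deviations gave different orders. AQP1 and the listed markers KL and CLIC6 were highest in control replicate 3 (20.0, 5.70 and 7.03 CPM). Mean deviations of the tested genes were -0.03 and -0.51 in controls and 0.53 and 0.01 after sevoflurane. For 4 of 8 sevoflurane replicate 2 was highest with control replicate 3 lowest (10.6% of all tested genes), as in SLC13A4 and IGF2. The part of choroid plexus in the levels of SLC13A4 and IGF2 was not tested. OTX2 and CLDN2 had 0 counts in every library, and TTR, the transport protein that choroid plexus makes in bulk, had 11 and 0 counts in controls and 20 and 2 after sevoflurane. KCNJ13, a potassium channel of that epithelium named after its values were seen, had 9 and 0 counts in controls and 37 and 16 after sevoflurane. The mean deviation of -0.51 in control replicate 3 includes TTR and KCNJ13 at 0 counts.

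Vessel cell lists were set beside them in the same way. The 13 pericyte and smooth muscle markers summed to 487 and 496 CPM in controls and 507 and 451 CPM after sevoflurane (12 tested, 0 called, 1 at an unadjusted p under 0.05 by edgeR; median 0.03). Their mean deviations were 0.08 and -0.31 in controls and 0.33 and -0.11 after sevoflurane, and for 5 of 12 sevoflurane replicate 2 was highest with control replicate 3 lowest (10.6% of all tested genes), the same 2 extremes as in the 10 genes. RGS5, a pericyte marker, was even at 256, 276, 264 and 256 CPM, while MYH11, the smooth muscle myosin, had 4.68 and 2.25 CPM in controls and 6.11 CPM in sevoflurane replicate 3, below sevoflurane replicate 2 as in SLC13A4. The 15 endothelial markers summed to 380 and 391 CPM in controls and 389 and 383 CPM after sevoflurane (0 called, 1 at an unadjusted p under 0.05 by edgeR; median -0.04). The 6 border-associated macrophage markers summed to 150 and 172 CPM in controls and 148 and 198 CPM after sevoflurane (0 called, 1 at an unadjusted p under 0.05 by edgeR; median 0.06). In that list CD163, a scavenger receptor, had 14.3 and 15.9 CPM in controls and 23.8 and 47.9 CPM after sevoflurane (1.25, SE 0.31, adjusted p = 0.154 by edgeR), highest in sevoflurane replicate 3 and not in replicate 2.

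Of the cortical cell types, neuron markers showed 0 calls among 6 (median 0.09, with 0 at an unadjusted p under 0.05 by edgeR). SNAP25, a synaptic protein of neurons, had 1033 to 1376 CPM. All 12 mature oligodendrocyte markers had both sevoflurane libraries below both controls (median log2 fold change -1.87). Of these 11 were called lower (lower calls made up 0.537% of tested genes) and ASPA was not (-1.07, SE 0.31, adjusted p = 0.252 by edgeR). Mean deviations were 0.65 and 1.17 in controls and -1.16 and -0.67 after sevoflurane. Control replicate 3 and sevoflurane replicate 2 were thus the extremes here too, in reverse order to the 10 fibroblast genes. Of 6 astrocyte markers GFAP, the astrocyte intermediate filament, fell (-1.41, SE 0.16, adjusted p = 0.00928 by edgeR) and 5 were not called. Red blood cell markers summed to 52.6 and 24.8 CPM in controls and 22.9 and 40.1 CPM after sevoflurane, an order unlike that of the 10 genes (3 tested, 0 called, 0 at an unadjusted p under 0.05 by edgeR). The part of these cell types in the levels of the 10 genes was not tested. The 17 lists with 0 calls held 168 distinct tested genes. Of these DESeq2 called 4 (AQP1, CD163, IGFBP3 and OMD), 3 higher and 1 lower, and gave 44 no adjusted p. Over all genes it called 279 of 13576. By limma-voom 0 were called, against 110 of 17693 over all genes. By edgeR's likelihood ratio test 8 were, 6 higher and 2 lower, DSP and SLC22A8 among them, against 441 of 17693 over all genes.

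**Figure D5:**
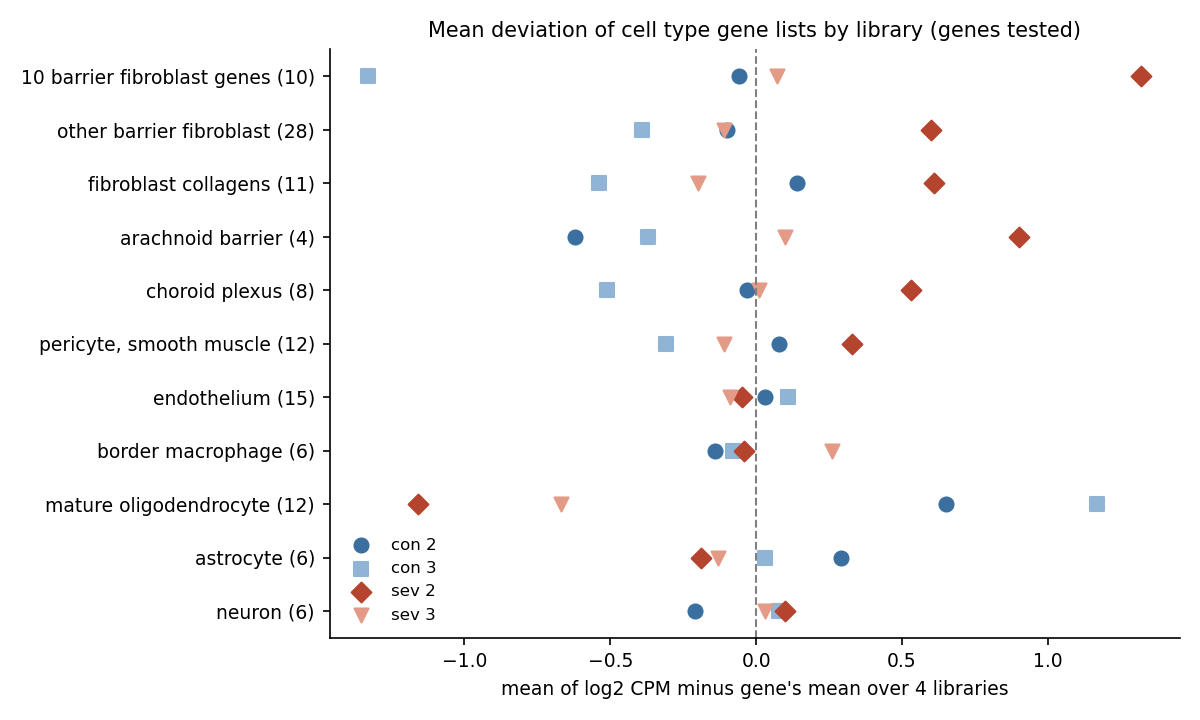
Mean log2 deviation from each gene's mean over the 4 libraries (horizontal axis) for the 10 genes and 10 cell type lists, with the number of genes tested in brackets and 1 symbol per library. Sevoflurane replicate 2 is the right-most symbol from the 10 genes (1.32) down to pericytes and smooth muscle (0.33), and the left-most for mature oligodendrocytes (-1.16).

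The genes whose pattern lay nearest to the mean pattern of the 10 were found by Euclidean distance between log2 deviations over the 4 libraries. In order they were MFAP4 (0.14), FHL5 (0.22), TMEM30B (0.25), ITGA11 (0.26), CEMIP (0.28), MYH11 (0.29), PI16 (0.31), COL3A1 (0.34), PLBD1 (0.36) and APOB (0.36). The median distance of all 13681 candidate genes was 1.91, and 157 lay within 1. MFAP4, a protein of elastic microfibrils, had 4.39 and 1.86 CPM in controls and 12.1 and 4.58 CPM after sevoflurane. None of the 10 nearest genes was called (adjusted p 0.331 to 0.628 by edgeR).

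The same distance ranks the 10 genes themselves. ALDH1A2 (0.28) and LUM (0.53) lay nearest to their common pattern, and SLC6A13 (1.06), FOXC1 (1.63) and SLC13A4 (3.49) farthest. Of the other barrier fibroblast list, 4 of 27 candidates were among the 100 nearest genes, and 5 of 10 collagens were. With 4 libraries there are few patterns to tell apart, so nearness is a description of these libraries.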

How the data were processed

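Per the submitters' processing notes, HISAT2 aligned the reads. Its version, the counter, build, annotation and strand setting are not stated in the sources used here. The authors deposited raw counts of reads per gene, 1 column per library. Overlapping genes and near-identical copies are therefore uncertain. The analysis used edgeR 4.0.16 (R 4.3.3): its default filter on low counts (a minimum of 10, and 15 summed over libraries), TMM scaling, a two-sided quasi-likelihood test of group over 17693 genes, and Benjamini-Hochberg adjustment with a threshold of 0.05. SE is the log2 fold change divided by the square root of F. The steps were tested on simulated data. Deviations are log2 CPM with a prior count of 2. Intervals of ratios are exact binomial intervals on the counts. With 2 against 2 libraries no exact two-sided permutation p can fall below 0.333, so none was made.

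The 10 genes and the 19 lists (216 genes, 6 matched by gene number in a RefSeq table used for names only, 1 without a row) were chosen with earlier results of these data known. From each list the 4 genes of highest mean CPM could be named, plus called genes and the 10 nearest genes; others are marked as named after their values were seen, and 1 gene that the rule named is not reported here. Alternatives were other scalings, filters and tests (DESeq2 1.42.0, limma-voom 3.58.1), a replicate block and leaving out each library.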

Additional observations from a re-analysis of the deposited data

How the results depend on the processing

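The count of called members, 1 with the main test, was 0 with library size alone, with no filter and by limma-voom, 2 by edgeR's likelihood ratio test (SLC6A13 and SLC13A4), and 0 to 5 with 1 library left out. It was 5 when counted by groups that do not overlap, an alternative chosen after seeing the data. With the replicate block it was also 5 (SLC6A13, SLC13A4, PTGDS, SLC22A6 and IGF2). The labels do not say that the numbers mark shared animals, and same-numbered deviations had a correlation of 0.00898 across genes, so the numbers are not read as a pairing. Over all genes, 106 were called with the main test, 60 with no filter, 279 by DESeq2, 441 by the likelihood ratio test, 511 with the replicate block and 145 to 283 with 1 library left out. The median log2 fold change of the 10 genes was 1.09 to 1.19 under the other scalings, filters and tests and 0.36 to 1.82 with 1 library left out. It was -0.07 without control replicate 3 and sevoflurane replicate 2 together, a comparison of 1 library with 1 chosen after seeing the data. For the other barrier fibroblast list the median of 0.27 was -0.06 in that comparison, -0.10 to 0.52 with 1 library left out, and 0.00 with the stricter filter, which tests fewer genes. With 1 library left out FOXC1 had -0.50 to 0.64 and IGF2 -0.15 to 1.59, both lowest without sevoflurane replicate 2. Where not said, the cause was not tested. Fits with 1 library left out assume that the lone library varies like the other group. Of the 10 nearest genes, 7 were shared without SLC6A13 and 7 without PTGDS. Depth limits CRABP2, SLC13A4, ALDH1A2, LUM and SLC22A6 most, with 2 to 10 counts in control replicate 3, on which their ratios to that library rest.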
